A study of Solanum lycopersicum with 12 samples.

Results

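Subtilases are serine proteases of the subtilisin family, and proteinase inhibitors are small proteins that block proteases. The genes described here are all those of 2 deposited tables of tomato stem transcripts whose annotation, in the protein name or the InterPro entry name, contains Subtilisin, Peptidase S8, Proteinase inhibitor or Protease inhibitor. They number 41 of the 6120 genes in either table, 32 subtilases and 9 inhibitors. The table made for the first collection holds 30 subtilases and 8 inhibitors, the table made for the second holds 7 subtilases and 2 inhibitors, and 6 genes are in both. The stems came from tomato plants (Solanum lycopersicum) of the genotype Ailsa Craig, grown in pots in a greenhouse. Weighted plants carried a wooden clamp of 3 g at the top of the stem for 48 h, and control plants had no clamp. There were 4 groups of 3 sequenced libraries each, namely weighted and control stems at 6 h after the clamp was put on, and weighted and control stems at 10 days after the clamp had been taken off. The first time follows the series' design text, whereas the sample labels count the same 6 h as post treatment. Whole stems were used, so fewer cells of a type and less RNA per cell cannot be told apart.

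Most plant subtilases are made with a propeptide, secreted, and active in the cell wall space, where they mature peptide signals and wall enzymes or degrade proteins. The potato inhibitor I and II families block serine proteases and are known in tomato leaves as products made after wounding, under the control of systemin and jasmonate. Cystatins block cysteine proteases of the papain type. Of the 32 subtilases, 31 belong to the plant group with a fibronectin-like domain entry or related entries, and 1 is tripeptidyl-peptidase II, a large peptidase that takes 3 residues at a time from the ends of peptides. The propeptide entry is listed for 30 subtilases. The inhibitors are 4 potato inhibitor I genes, 1 potato inhibitor II gene, 3 cystatins and 1 gene of the lipid transfer and seed storage family, which is listed by a protein name that includes protease inhibitor. Names such as SBT1.4 are those of the matched protein in the annotation and may come from another plant species.

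The values are FPKM (fragments scaled to the length of the transcript and to all mapped fragments of the library), which can be compared between genes because they are per length. Both tables had already been chosen by the authors for genes that differed at their own time. Of all genes tested with limma, 99.3% passed an adjusted p under 0.05 between weighted and control stems at 6 h, and 99.7% did so at 10 days in the table of that time. Counts of passing members in a table at its own time are therefore a description of what the tables hold. The number of reads behind each value is unknown. The labels give biological replicates without saying which plants were pooled, so the p-values measure the spread between these libraries.

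Among the subtilases of the 6 h table, mean levels at 6 h ran from 0.0233 to 297 FPKM in weighted stems and from 0.0333 to 208 FPKM in control stems, with medians over the 30 genes of 6.14 and 6.06 FPKM. The 2 genes most abundant in weighted stems at 6 h were SBT3 (Solyc01g087850.2), a tomato subtilase known for its part in defence against insect larvae, and Solyc03g044150.4. Together they made up 56.6% ± 0.864 of the summed FPKM of the 30 subtilases in weighted stems and 34.9% ± 1.48 in control stems (SD, n = 3 each). At 10 days their share was 15.0% ± 1.11 in weighted stems and 19.1% ± 1.68 in control stems, and Solyc06g062950.1, annotated as SBT1.4, was the most abundant at 177 ± 20.8 and 100 ± 5.6 FPKM. Summed over all 30 genes, the level at 6 h was 983 ± 39.7 FPKM in weighted stems and 891 ± 3.3 FPKM in control stems. For the 8 inhibitors the order was the opposite, with 606 ± 131 FPKM in weighted stems and 1216 ± 84.1 FPKM in control stems at 6 h. These sums cover only genes that the table holds.

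At 6 h, 11 subtilases rose and 16 fell in weighted stems among the 27 that reached 1 FPKM in 3 libraries (limma adjusted p under 0.05 for each). Of all genes tested, 48.2% rose and 51.1% fell. The median log2 fold change of the 27 subtilases was -0.55, beside -0.26 over all genes tested. The groups did not overlap for 26 of the 27, against 95.5% of all genes tested. The 3 subtilases not tested were Solyc04g078720.1, Solyc04g078730.1 and Solyc08g007610.1, which stayed under 1 FPKM in every library. Of the 11 that rose, 2 (Solyc04g078710.3 and Solyc01g006680.4) were under 1 FPKM in every control library. They reached the minimum level through the weighted libraries alone, so in this test they could only come out higher.

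SBT3 showed the largest rise among the subtilases, on the log2(FPKM + 1) scale on which all fold changes here are given. It had 315.56, 270.30 and 304.40 FPKM in weighted stems, against 104.56, 106.32 and 98.25 FPKM in control stems. The lowest weighted library was above the highest control library by more than the whole range of either group. The log2 fold change was 1.51 (SE 0.09, limma adjusted p = 0.00014), a ratio of means of 2.88. Solyc03g044150.4, close to SBT3 in level, had 271.75, 257.77 and 248.53 FPKM in weighted stems and 212.26, 213.58 and 197.84 FPKM in control stems. Its rise was small but did not overlap between the groups (log2 fold change 0.32, SE 0.08, limma adjusted p = 0.008).

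Other rising subtilases were less abundant than this pair. Solyc04g078740.2 had 9.10, 8.51 and 9.04 FPKM in weighted stems and 4.53, 2.53 and 3.28 FPKM in control stems (log2 fold change 1.18, SE 0.16, limma adjusted p = 0.0012). Solyc01g087810.2 had 10.70, 13.78 and 11.17 FPKM in weighted stems and 7.03, 5.73 and 3.36 FPKM in control stems (log2 fold change 1.05, SE 0.22, limma adjusted p = 0.0048). In both, all 3 weighted libraries were above all 3 control libraries. Solyc12g011140.3, annotated as SBT5.3 after an Arabidopsis subtilase first found in auxin-treated root cultures, had 8.83, 7.27 and 7.48 FPKM in weighted stems and 4.81, 4.80 and 5.05 FPKM in control stems, a narrow control range well below the weighted one (log2 fold change 0.59). Solyc08g079840.2 had 8.66, 7.05 and 8.71 FPKM in weighted stems and 4.19, 5.95 and 5.05 FPKM in control stems (log2 fold change 0.60), again without overlap. The remaining 5 that rose were Solyc04g078710.3 (1.49), Solyc01g087840.3, named SBT4E (0.98), Solyc01g087800.2 (0.83), Solyc01g006680.4 (0.57) and Solyc01g087820.2 (0.56), given as log2 fold changes, among them both genes that were tested through their weighted libraries alone.

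Among the 16 that fell, Solyc03g081260.4 moved most. Its annotation is SBT3.5, a subtilase that in Arabidopsis processes a pectin methylesterase. It had 12.67, 11.63 and 11.97 FPKM in weighted stems, against 28.35, 31.10 and 26.69 FPKM in control stems (log2 fold change -1.18, SE 0.09, limma adjusted p = 0.00026). Weighted libraries were close to each other and all far under the control libraries. A pair of genes named SBT2.3 fell too. Solyc02g069630.3 had 16.17, 16.07 and 17.60 FPKM in weighted stems and 28.34, 35.87 and 29.42 FPKM in control stems (log2 fold change -0.86). The second, Solyc02g030130.4, fell by 0.71 on the log2 scale, and its neighbour by identifier, Solyc02g030120.3, had 5.46, 6.93 and 6.43 FPKM in weighted stems and 10.19, 13.87 and 14.86 FPKM in control stems (log2 fold change -0.93). In all 3 the groups did not overlap.

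Solyc01g087740.1, named SBT1.9, had 1.81, 2.88 and 2.40 FPKM in weighted stems and 3.74, 3.11 and 9.51 FPKM in control stems (log2 fold change -0.82). Control replicate 3 was far above the other control libraries. Solyc01g087780.2 had 3.15, 2.91 and 3.00 FPKM in weighted stems and 5.36, 8.82 and 4.51 FPKM in control stems (log2 fold change -0.80). The other 10 fell by 0.29 to 0.74. They include Solyc04g081810.4 (-0.74), named as the CO(2)-response secreted protease that in Arabidopsis cleaves a peptide controlling stomatal development, Solyc03g123490.1, named SBT1.5 (-0.60), Solyc01g091930.3, named SBT4.14 after an Arabidopsis xylem protease (-0.57), and Solyc07g008900.4 (-0.29), whose mean level was 90.1 FPKM in weighted stems and 110 FPKM in control stems.

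Leaving out 1 library at a time ended the call of 7 of the 27 subtilases at 6 h, without a change of sign. They were Solyc01g087740.1 (highest limma adjusted p = 0.119), Solyc01g087800.2 (0.0832), Solyc01g091930.3 (0.0685), Solyc04g081810.4 (0.0671), Solyc07g008900.4 (0.0721), Solyc08g079860.2 (0.0609) and Solyc10g084320.3 (0.0933). Without weighted replicate 1 the calls of Solyc01g087740.1, Solyc01g091930.3 and Solyc10g084320.3 were lost. Without weighted replicate 2 they were lost for the same 3 genes and Solyc01g087800.2. Without weighted replicate 3 they were lost for Solyc01g087740.1, Solyc04g081810.4, Solyc07g008900.4 and Solyc08g079860.2. Among controls, leaving out replicate 1 ended the calls of Solyc01g087740.1, Solyc04g081810.4, Solyc08g079860.2 and Solyc10g084320.3. Leaving out control replicate 2 ended those of Solyc01g091930.3, Solyc04g081810.4, Solyc07g008900.4 and Solyc08g079860.2, and leaving out control replicate 3 those of Solyc01g087740.1, Solyc01g087800.2 and Solyc10g084320.3. Besides these, Solyc04g078710.3 and Solyc01g006680.4 fell under the minimum level and were not tested without weighted replicate 1, 2 or 3.

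**Figure D1:**
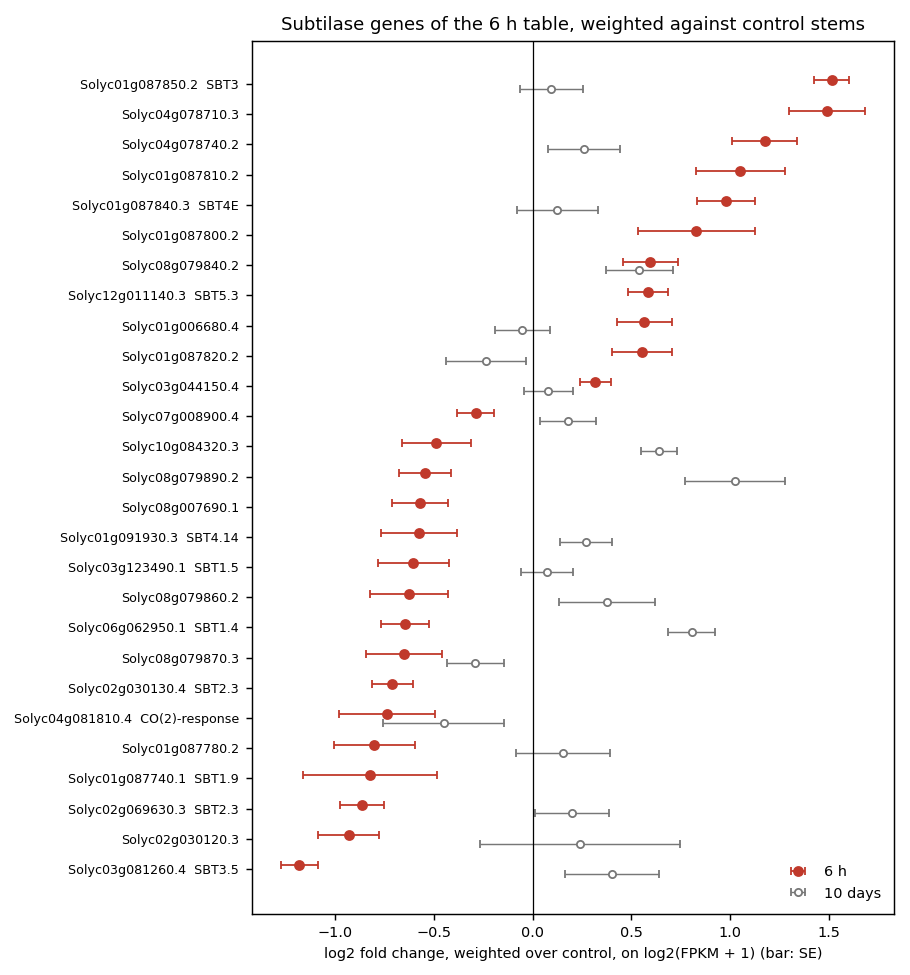
Log2 fold change (weighted over control, on log2(FPKM + 1)) of the 27 subtilase genes tested at 6 h, with the SE as bars; filled points are 6 h and open points the 10 day values of the same genes, where at least 1 FPKM was reached in 3 libraries (20 genes). At 6 h SBT3 lies highest at 1.51 and Solyc03g081260.4 lowest at -1.18, and most open points lie nearer to 0.

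Many members sit in runs of neighbouring identifiers. With a step of at most 100 in the gene number, 22 of the 41 genes fall into 6 runs. The longest, of 7 subtilases from Solyc01g087740.1 to Solyc01g087850.2, ends with SBT3. Its 5 genes with the higher numbers rose and its 2 with the lower numbers fell at 6 h. The run of 4 from Solyc04g078710.3 to Solyc04g078740.2 held 2 that rose and 2 that were not tested. The means of these 2 were 0.357 and 0.17 FPKM in weighted stems and 0.06 and 0.0333 FPKM in control stems, with all weighted libraries above all control libraries. Both stayed under 1 FPKM in every library, and the groups of 95.5% of all genes tested at 6 h did not overlap either. In the run of 4 from Solyc08g079840.2 to Solyc08g079890.2, 1 rose and 3 fell. The 3 potato inhibitor I genes from Solyc09g084440.2 to Solyc09g084460.3 fell together. How multiply mapping reads were assigned is not given here, so values within a run may share reads and are not independent of each other.

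**Figure D2:**
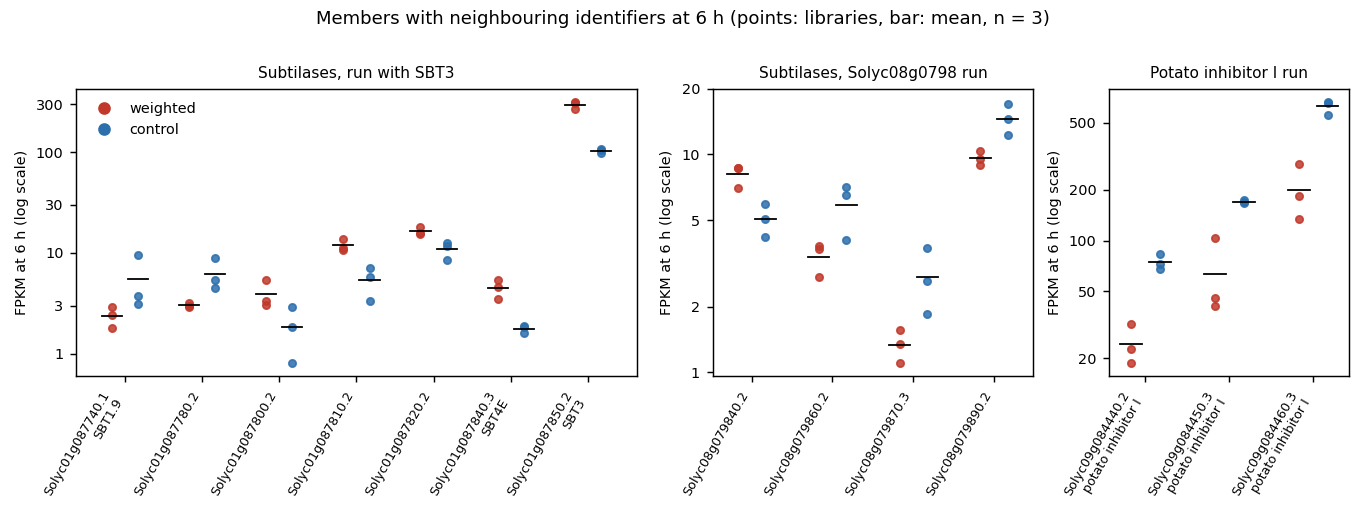
FPKM at 6 h on a log axis in each library for the runs of neighbouring identifiers with SBT3, with Solyc08g079840.2 and with the potato inhibitor I genes; weighted libraries stand left of control libraries and the bar is the mean (n = 3). Within the first run the control stems lie higher for the 2 genes on the left and the weighted stems higher for the 5 on the right, and all 3 inhibitor genes lie lower in weighted stems.

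The InterPro entry for the PA domain, an insertion that in several plant subtilases takes part in pairing of the enzyme molecules, was listed for 11 of the 32 subtilases and was not part of the choice of genes. Of the 9 tested at 6 h that carry the entry, 2 rose and 7 fell, and their median log2 fold change was -0.60. Of the 18 tested without it 9 rose and 9 fell, with a median of 0.13. Of all genes tested, 48.2% rose and 51.1% fell, with a median of -0.26. The 4 genes of the run from Solyc08g079840.2 to Solyc08g079890.2 all carry the entry and may share reads. No test of the difference between genes with and without the entry was made. SBT3, whose PA domain is known from its crystal structure, is among the genes without the entry, so the entry does not mark every protein with the domain.

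Among the inhibitors at 6 h, 3 rose and 5 fell in weighted stems, all 8 with limma adjusted p under 0.05. So did 99.3% of all genes tested in this table, of which 48.2% rose and 51.1% fell. The largest falls were in the 3 neighbouring potato inhibitor I genes. Solyc09g084460.3, the most abundant member of either class in control stems, had 183.50, 134.47 and 285.53 FPKM in weighted stems and 655.49, 666.74 and 556.64 FPKM in control stems (log2 fold change -1.70, SE 0.25, limma adjusted p = 0.0014). Solyc09g084450.3 had 45.52, 41.18 and 103.96 FPKM in weighted stems and 168.58, 167.28 and 173.71 FPKM in control stems (log2 fold change -1.53, SE 0.32, limma adjusted p = 0.0044). Weighted libraries of both genes differed among themselves by more than the control libraries did, and none reached the control range. Solyc09g084440.2 had 22.59, 18.68 and 31.82 FPKM in weighted stems and 83.37, 72.79 and 67.97 FPKM in control stems (log2 fold change -1.61, SE 0.19, limma adjusted p = 0.00069). In all 3 genes weighted replicate 3 was the highest of the weighted libraries. Summed over the 3 genes, the level was 289 ± 118 FPKM in weighted stems and 871 ± 62.8 FPKM in control stems (SD, n = 3 each).

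The cystatins moved less. Solyc05g054120.1 had 110.39, 128.99 and 108.72 FPKM in weighted stems and 163.76, 261.79 and 225.62 FPKM in control stems, with no overlap (log2 fold change -0.88, SE 0.17, limma adjusted p = 0.0037). With all 12 libraries in one fit its call was lost (limma adjusted p = 0.0666). Solyc11g012385.1 had 12.64, 18.37 and 14.25 FPKM in weighted stems and 20.12, 27.44 and 18.24 FPKM in control stems (log2 fold change -0.51, limma adjusted p = 0.029). Its groups overlapped slightly, and the call was lost without weighted replicate 1 or 3 or control replicate 1 or 2 (highest limma adjusted p = 0.0925).

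The other 3 inhibitors rose. The potato inhibitor II gene TR8 (Solyc11g021060.2) had 74.12, 42.74 and 87.21 FPKM in weighted stems and 39.47, 41.91 and 28.35 FPKM in control stems (log2 fold change 0.84, SE 0.27, limma adjusted p = 0.019). Weighted replicate 2 was barely above the highest control library. The call was lost without weighted replicate 1 or 3 or control replicate 3 (highest limma adjusted p = 0.0627). The lipid transfer-like gene Solyc08g079250.4 had 127.37, 101.56 and 116.30 FPKM in weighted stems and 59.16, 71.27 and 76.10 FPKM in control stems, without overlap (log2 fold change 0.73, SE 0.13, limma adjusted p = 0.0024). Ethylene-responsive proteinase inhibitor 1 (Solyc08g080630.4), a potato inhibitor I gene named for its response to ethylene in tomato, was low. It had 2.50, 4.76 and 1.51 FPKM in weighted stems and 0.85, 0.42 and 0.39 FPKM in control stems (log2 fold change 1.26, SE 0.29, limma adjusted p = 0.0062). All its control libraries were under 1 FPKM, so it was tested through its weighted libraries alone and could only come out higher. Without weighted replicate 1 or 3 the count of rising inhibitors was 1. Potato inhibitor I genes of the table did not all move the same way, with this one, outside the run, higher and the 3 in the run lower in weighted stems.

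**Figure D3:**
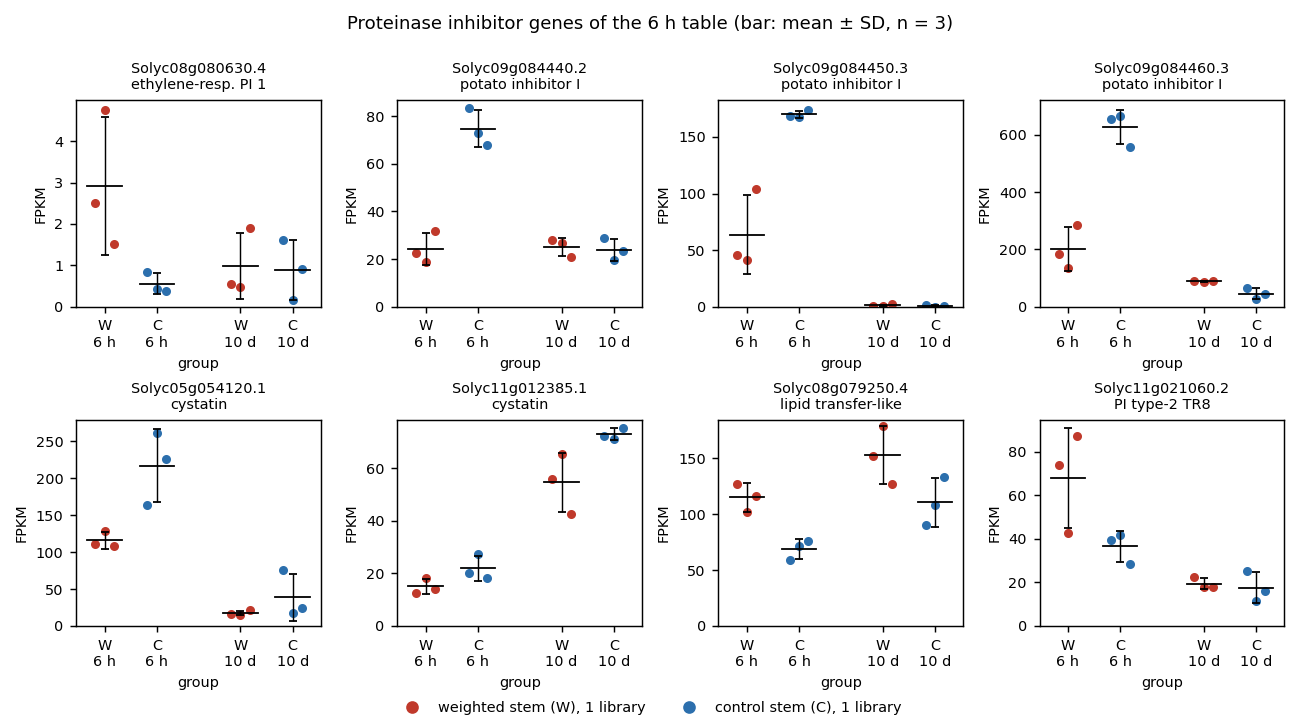
FPKM in each library (points) with mean and SD (n = 3) for the 8 inhibitor genes of the 6 h table, weighted (W) and control (C) stems at 6 h and 10 days. At 6 h the 3 potato inhibitor I genes of the Solyc09 run and both cystatins lie lower in weighted stems, and the other 3 genes lie higher.

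Gene lists for parts of the stem were read from the annotation of the same table. All 51 genes of photosystems and chlorophyll a-b binding proteins, typical of green cortex, were at 1 FPKM or more in every library, and 50 of them fell and 1 rose at 6 h. Their summed level ran from 8205 to 9963 FPKM in weighted stems and from 14477 to 19690 FPKM in control stems. For 7 terpene synthase genes, which are typical of glandular trichomes, the sum ran from 25.0 to 30.2 FPKM in weighted stems and from 59.1 to 69.9 FPKM in control stems, and all 6 that were tested fell. The sums for 29 genes of vascular walls (cellulose synthase, COBRA and laccase) overlapped, at 2227 to 2383 FPKM in weighted stems and 2126 to 2371 FPKM in control stems. So did those for 5 phloem genes, at 87.4 to 115 and 85.7 to 146 FPKM, and for 53 genes of epidermal lipids, at 2371 to 2534 and 2425 to 2698 FPKM. The part of these differences in the changes of inhibitors and subtilases at 6 h, in either direction, was not tested.

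At 10 days, 6 members of the table for that time were higher and 2 lower in weighted stems among 8 tested (limma adjusted p under 0.05 for each). Of the 6 tested subtilases 5 rose and 1 fell, and of the 2 inhibitors 1 rose and 1 fell. Of all genes tested there, 51.8% rose and 47.9% fell. With library totals equalised the balance was another, with 77.6% of the called genes higher against 51.9% in the values as deposited, and of the members 6 were higher and 0 lower. None of the 8 had overlapping groups, as for 97.8% of all genes tested. The ninth, Solyc01g087810.2, was at 0.32, 0.39 and 0.48 FPKM in weighted stems and 1.06, 0.59 and 1.13 FPKM in control stems. It was lower in every weighted library and too low to be tested.

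The lists for parts of the stem also moved at 10 days. Summed levels of the green cortex genes ran from 11810 to 13986 FPKM in weighted stems and from 14397 to 16256 FPKM in control stems, and all 16 of them in the 10 day table fell. For the vascular wall genes the sum ran from 2503 to 2551 FPKM in weighted stems and from 1978 to 2261 FPKM in control stems, and all 5 in that table rose. The terpene synthase sums overlapped, at 24.7 to 30.5 FPKM in weighted stems and 9.84 to 29.0 FPKM in control stems, although the 2 genes in the 10 day table rose. Phloem sums, at 50.2 to 53.6 and 44.1 to 55.6 FPKM, and sums for epidermal lipids, at 1414 to 1793 and 1500 to 1916 FPKM, overlapped as well. The part of these differences in the changes of the members at 10 days was not tested.

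Solyc08g079890.2 had 39.91, 42.93 and 54.93 FPKM in weighted stems and 31.92, 16.68 and 19.49 FPKM in control stems (log2 fold change 1.03, SE 0.23, limma adjusted p = 0.0049). Control replicate 1 came nearest to the weighted libraries. Tripeptidyl-peptidase II (Solyc03g025610.3) had 34.11, 23.82 and 26.99 FPKM in weighted stems and 15.32, 14.88 and 14.35 FPKM in control stems (log2 fold change 0.87, SE 0.13, limma adjusted p = 0.0025). Solyc06g062950.1, the SBT1.4 gene whose Arabidopsis namesake is known from senescing leaves, had 188.24, 189.25 and 152.68 FPKM in weighted stems and 106.76, 96.84 and 97.28 FPKM in control stems (log2 fold change 0.81, SE 0.11, limma adjusted p = 0.0024). All 3 were raised in every weighted library, with control libraries close together for the last 2.

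Solyc10g084320.3 had 46.38, 46.14 and 45.43 FPKM in weighted stems and 30.37, 28.47 and 28.68 FPKM in control stems, narrow ranges that lie far apart (log2 fold change 0.64, SE 0.08, limma adjusted p = 0.002). Solyc08g079840.2 had 5.03, 5.26 and 6.57 FPKM in weighted stems and 4.43, 2.94 and 3.34 FPKM in control stems (log2 fold change 0.54). The 1 subtilase that fell was Solyc02g092670.1, named SBT1.7 after an Arabidopsis protease needed for seed mucilage release. It had 7.94, 9.00 and 9.48 FPKM in weighted stems and 12.95, 15.53 and 11.32 FPKM in control stems (log2 fold change -0.53, SE 0.13, limma adjusted p = 0.0065). That call was lost with library totals equalised (log2 fold change -0.26, limma adjusted p = 0.116), a scaling that moved the median of all genes of the table by 0.25 on the log2 scale.

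Of the inhibitors, the potato inhibitor I gene Solyc09g084460.3 had 88.12, 87.01 and 89.73 FPKM in weighted stems and 65.41, 26.66 and 45.21 FPKM in control stems (log2 fold change 1.02, SE 0.27, limma adjusted p = 0.0078). Weighted libraries were nearly alike and above all control libraries. The cystatin gene Solyc01g009020.4 had 189.20, 178.12 and 182.29 FPKM in weighted stems and 225.33, 206.89 and 206.94 FPKM in control stems (log2 fold change -0.22, limma adjusted p = 0.024). Its call was lost without weighted replicate 2 or control replicate 1 or 3 (highest limma adjusted p = 0.0983), with all 12 libraries in one fit and with quantile normalization, and with library totals equalised its sign turned.

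**Figure D4:**
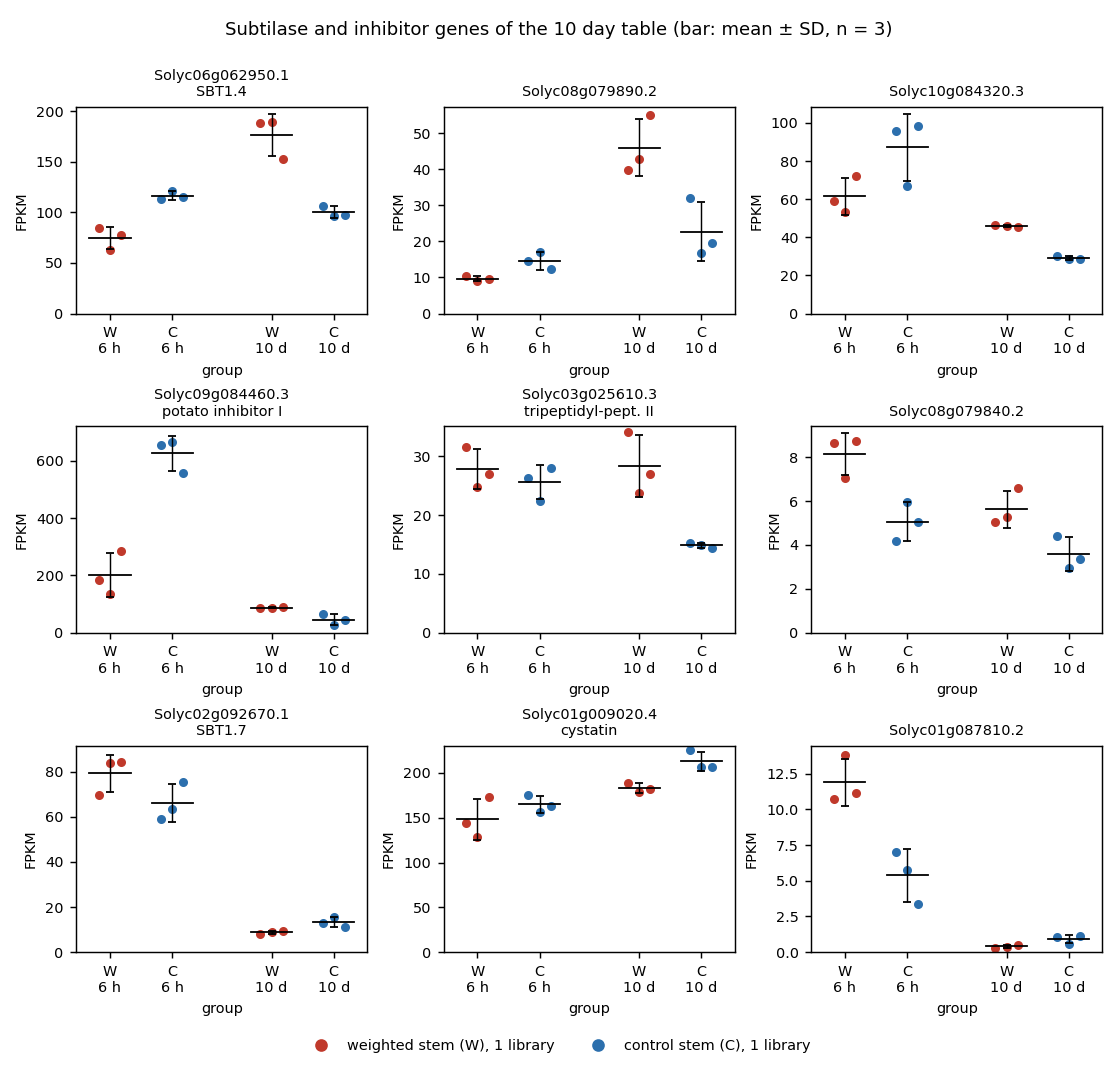
FPKM in each library (points) with mean and SD (n = 3) for the 9 members of the 10 day table, weighted (W) and control (C) stems at 6 h and 10 days. The first 4 genes lie lower in weighted stems at 6 h and higher at 10 days; Solyc08g079840.2 lies higher at both times, and Solyc01g087810.2 is higher in weighted stems at 6 h and at 1.13 FPKM or less in all libraries at 10 days.

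The 6 genes in both tables allow the direction at the 2 times to be set side by side, each time having its own control libraries. Of the 6, 4 were lower at 6 h and higher at 10 days in weighted stems, 1 was higher at 6 h and lower at 10 days, and 1 was higher at both. Of all 372 genes shared by the tables, 34.4% had opposite signs, and 21.0% were lower at 6 h and higher at 10 days. The 4 that turned upward were the subtilases Solyc06g062950.1, Solyc08g079890.2 and Solyc10g084320.3 and the inhibitor Solyc09g084460.3. At 6 h, Solyc06g062950.1 had 84.57, 62.46 and 77.21 FPKM in weighted stems and 113.60, 121.47 and 114.91 FPKM in control stems (log2 fold change -0.65). Solyc08g079890.2 had 10.38, 8.95 and 9.53 FPKM in weighted stems and 14.47, 17.07 and 12.25 FPKM in control stems (log2 fold change -0.55). Neither gene's groups overlapped at either time. Solyc10g084320.3 had 58.89, 53.32 and 72.22 FPKM in weighted stems and 95.85, 67.09 and 98.48 FPKM in control stems (log2 fold change -0.49), where weighted replicate 3 was above control replicate 2.

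The difference between the weight effects (10 days minus 6 h), tested in all 12 libraries, passed for all 4. It was 1.45 for Solyc06g062950.1 (SE 0.17, limma adjusted p = 0.00053), 1.57 for Solyc08g079890.2 (SE 0.30, limma adjusted p = 0.0036), 1.13 for Solyc10g084320.3 (SE 0.21, limma adjusted p = 0.0031) and 2.72 for Solyc09g084460.3 (SE 0.43, limma adjusted p = 0.0017). Solyc01g087810.2 had the opposite difference of -1.51 (SE 0.29, limma adjusted p = 0.0036). For Solyc08g079840.2 the effects at the 2 times differed by -0.06 (SE 0.22, limma adjusted p = 0.84). These 6 genes had entered both tables by differing at each time. In the 10 day table the difference between the times passed for 7 of 9 members, against 49.1% of all genes. The further members were tripeptidyl-peptidase II (Solyc03g025610.3) at 0.76 (SE 0.19, limma adjusted p = 0.0077) and SBT1.7 (Solyc02g092670.1) at -0.80 (SE 0.19, limma adjusted p = 0.0053). Both had been chosen for a difference at 10 days, so a smaller effect at 6 h by itself gives such a difference.

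Libraries of the other time were not used to choose a table, but genes in both tables had been chosen at each time. In the 10 day table, tested at 6 h, 5 of 9 members passed, against 27.4% of all genes of that table. Of the 5, 2 were higher and 3 lower in weighted stems. All 5 are also in the 6 h table, so they had been chosen for differing in these same libraries. In both tables are 6 of the 9 members, against 372 of the 1146 genes. None of the members absent from the 6 h table passed. With library totals equalised, which moved the median of all genes by 0.22, 3 members were higher and 2 lower, and 80.1% of all called genes were higher against 50.5% in the values as deposited. As deposited, the members were Solyc01g087810.2 and Solyc08g079840.2, higher, and Solyc06g062950.1, Solyc08g079890.2 and Solyc09g084460.3, lower. The count fell to 2 without weighted replicate 1 or 3 or control replicate 1, and to 3 without weighted replicate 2 or control replicate 2. Tripeptidyl-peptidase II had 31.55, 24.82 and 27.02 FPKM in weighted stems and 26.35, 22.47 and 28.03 FPKM in control stems at 6 h, with groups that overlapped (log2 fold change 0.11, SE 0.12, limma adjusted p = 0.51). SBT1.7 had 69.78, 83.86 and 84.33 FPKM in weighted stems and 59.20, 63.47 and 75.37 FPKM in control stems (log2 fold change 0.26, SE 0.13, limma adjusted p = 0.15). Its highest control library lay within the weighted range. The cystatin Solyc01g009020.4 had 144.02, 128.00 and 173.06 FPKM in weighted stems and 175.29, 155.84 and 163.01 FPKM in control stems (log2 fold change -0.16, SE 0.13, limma adjusted p = 0.37).

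In the 6 h table, tested at 10 days, 0 of the 26 members tested passed limma at adjusted p under 0.05, and 0 of all 4665 genes did (0% of all genes). At an unadjusted p under 0.05 there were 7 members, 4 subtilases and 3 inhibitors, against 16.7% of all genes. In a fit of all 12 libraries, which shares the spread, 229 of the 4665 genes (4.9%) passed. Among them were the 3 subtilases Solyc06g062950.1, Solyc08g079890.2 and Solyc10g084320.3. These 3, all 4 subtilases at the unadjusted p and the inhibitor Solyc09g084460.3 are in the 10 day table too. They had therefore been chosen for differing in these same 10 day libraries. The median log2 fold change at 10 days was 0.19 over the 20 subtilases tested and 0.13 over the 6 inhibitors, beside 0.04 over all genes. Of the 20 subtilases 16 had a positive value and 4 a negative one, where 55.8% of all genes had a positive one. SBT3 had 35.13, 38.57 and 25.94 FPKM in weighted stems and 30.94, 31.52 and 29.43 FPKM in control stems, and its groups overlapped (log2 fold change 0.10, SE 0.16, limma adjusted p = 0.80).

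Over all members of the 6 h table, the weight effect differed between the times for 20 of 27 subtilases and 3 of 8 inhibitors, against 46.7% of all genes. It was more positive at 10 days for 12 subtilases and 3 inhibitors and more negative for 8 subtilases, where 24.9% of all genes were more positive and 21.8% more negative. Because the genes had been chosen for a difference at 6 h, a smaller effect at 10 days by itself gives such a difference. For SBT3 it was -1.42 (SE 0.18, limma adjusted p = 0.00071), for Solyc04g078740.2 -0.92 (SE 0.26), for Solyc12g011140.3 -0.71 (SE 0.17) and for Solyc01g087820.2 -0.79 (SE 0.27). For Solyc03g081260.4 it was 1.58 (SE 0.27, limma adjusted p = 0.0021) and for Solyc02g069630.3 1.06 (SE 0.22, limma adjusted p = 0.0049). The call of 6 subtilases was lost when 1 library was left out, namely Solyc01g087780.2, Solyc01g087820.2, Solyc01g087840.3, Solyc03g123490.1, Solyc07g008900.4 and Solyc08g079860.2, with highest limma adjusted p from 0.0525 to 0.0975. At least 1 of these calls was lost without any 1 of the 12 libraries.

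Between the collections most members fell, in weighted as in control stems. In weighted stems 18 of 27 subtilases were lower at 10 days than at 6 h and 6 were higher, where 47.1% of all genes were lower and 32.2% higher (limma adjusted p under 0.05). In control stems 13 of 25 subtilases were lower and 2 higher, where 38.6% of all genes were lower and 27.3% higher. All 13 fell by at least 1 on the log2 scale, as did 21.2% of all genes. Of the inhibitors 5 were lower and 2 higher in weighted stems (8 tested), and 5 were lower and 2 higher in control stems (7 tested). The median log2 fold change of the subtilases was -0.74 in weighted stems and -1.28 in control stems, beside -0.23 and -0.18 over all genes. Scaling to median ratios moved the median of all genes by 0.20 in weighted and 0.15 in control stems, and under it 20 members were lower and 10 higher in weighted stems and 18 lower and 6 higher in control stems. Quantile normalization moved the median of all genes by 0.16 in either group. In control stems 8 members were then higher and 18 lower, of them 6 subtilases higher, and 51.5% of all called genes were higher against 41.4% in the values as deposited. Of the subtilases called lower, 5 in weighted and 3 in control stems were under 1 FPKM in every library at 10 days, so they were tested through the 6 h libraries alone and could only come out lower. Time and collection are 1 label in the sample records and cannot be told apart.

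The log2 fold change of SBT3 (Solyc01g087850.2), 10 days over 6 h, was -3.14 in weighted stems and -1.72 in control stems (limma adjusted p = 3.6e-06 and 3.6e-05). Solyc03g044150.4 had 43.80, 44.44 and 41.83 FPKM in weighted stems at 10 days and 47.61, 39.19 and 36.74 FPKM in control stems, log2 fold changes of -2.55 and -2.32 over its levels at 6 h given above. Every library of either gene at 10 days was below every library at 6 h. The largest fall between collections was in the inhibitor Solyc09g084450.3. At 10 days it had 0.81, 0.80 and 1.95 FPKM in weighted stems and 1.39, 0.07 and 0.26 FPKM in control stems, a log2 fold change of -4.80 (SE 0.37) and -6.85 (SE 0.29). Its neighbour Solyc09g084460.3 changed by -1.11 in weighted stems and -3.83 in control stems. The third of the run, Solyc09g084440.2, had 27.83, 26.63 and 20.79 FPKM in weighted stems and 28.94, 19.66 and 23.25 FPKM in control stems at 10 days. That is a log2 fold change of 0.06 (SE 0.20, limma adjusted p = 0.79) in weighted stems and -1.61 (SE 0.17, limma adjusted p = 0.00026) in control stems.

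The cystatins parted over time. Solyc05g054120.1 had 16.41, 14.94 and 21.18 FPKM in weighted stems and 75.34, 17.11 and 23.83 FPKM in control stems at 10 days, log2 fold changes of -2.67 and -2.72 over 6 h. Control replicate 1 held most of the control level. Solyc11g012385.1 had 55.97, 65.31 and 42.75 FPKM in weighted stems and 72.44, 71.21 and 75.39 FPKM in control stems at 10 days, a rise of 1.79 in weighted and 1.71 in control stems. TR8 had 22.31, 17.81 and 18.02 FPKM in weighted stems and 25.37, 11.41 and 16.18 FPKM in control stems at 10 days, log2 fold changes of -1.71 and -1.06. In control stems the TR8 call was lost without control replicate 1 or 2 of 6 h or control replicate 3 of 10 days (highest limma adjusted p = 0.0604). The lipid transfer-like gene had 152.28, 178.75 and 126.87 FPKM in weighted stems and 90.22, 107.99 and 133.60 FPKM in control stems at 10 days. Its log2 fold change of 0.40 in weighted stems was lost without weighted replicate 2 or 3 of 6 h or weighted replicate 1 or 2 of 10 days and with all 12 libraries in one fit, and that of 0.67 in control stems without control replicate 1 of 6 h. Ethylene-responsive proteinase inhibitor 1 had 0.56, 0.48 and 1.91 FPKM in weighted stems and 1.61, 0.15 and 0.91 FPKM in control stems at 10 days, and its fall of 0.97 in weighted stems was lost without weighted replicate 1 or 2 of either time (highest limma adjusted p = 0.127) and under all 3 other scalings (highest limma adjusted p = 0.231).

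A few subtilases were higher at the later collection. Solyc08g079890.2 rose by 2.13 (SE 0.14) in weighted stems, where its log2 fold change in control stems was 0.56 (SE 0.25, limma adjusted p = 0.089). The CO(2)-response protease gene Solyc04g081810.4 had 15.68, 16.44 and 8.45 FPKM in weighted stems and 24.23, 13.23 and 18.53 FPKM in control stems at 10 days, where the groups overlapped. At 6 h it had 3.88, 4.05 and 2.53 FPKM in weighted stems and 7.20, 8.45 and 4.20 FPKM in control stems. Its log2 fold change, 10 days over 6 h, was 1.66 in weighted and 1.37 in control stems, with no overlap between the times in either. Solyc06g062950.1 rose by 1.23 in weighted stems and had a log2 fold change of -0.22 (limma adjusted p = 0.093) in control stems. Solyc08g079860.2 rose by 0.99 in weighted stems, against -0.02 (limma adjusted p = 0.96) in control stems, and Solyc01g091930.3 by 0.72, against -0.13 (limma adjusted p = 0.55). Solyc08g079870.3 rose by 1.06 in weighted stems and by 0.70 in control stems. In control stems its call was lost without control replicate 1 or 3 of 6 h or with array weights (highest limma adjusted p = 0.0574).

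**Figure D5:**
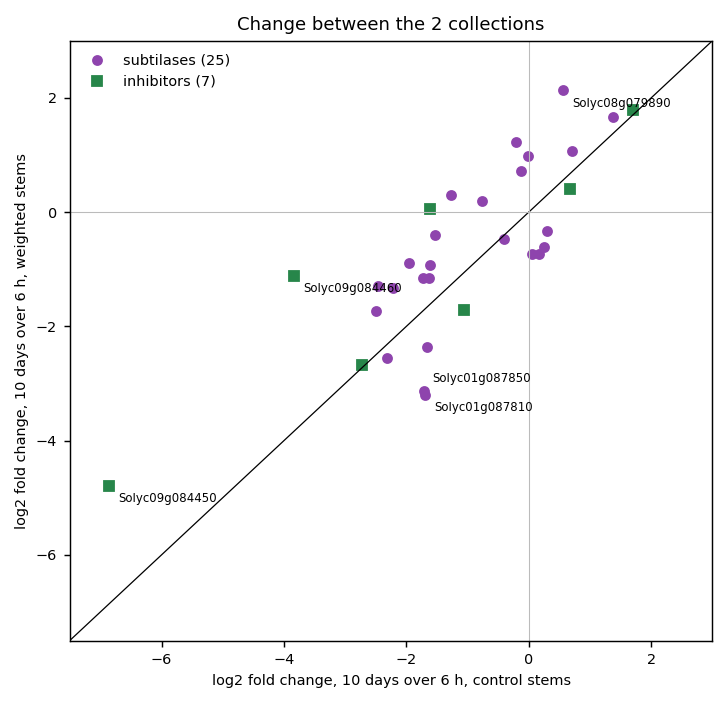
Log2 fold change of 10 days over 6 h in weighted stems (vertical axis) against that in control stems (horizontal axis) for the 32 members tested in both fits, 25 subtilases and 7 inhibitors; the line marks equal change. Most points lie left of and below 0 on both axes, SBT3 lies below the line at -3.14 and -1.72, and Solyc09g084460.3 lies above it at -1.11 and -3.83.

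Related genes outside the set were read from the same annotation. For comparison with the lists that follow, 48.2% of all genes tested rose and 51.1% fell at 6 h (median log2 fold change -0.26). In the 10 day table at 10 days 51.8% rose and 47.9% fell. Of 59 genes listed as other proteases at 6 h, 53 were tested, of which 19 rose and 33 fell (median log2 fold change -0.48). The list also caught inhibitors by their names. A pair of metallocarboxypeptidase inhibitor genes, of another small inhibitor family known in tomato, were among its largest falls. Solyc07g007250.4 had 1.18, 0.54 and 1.87 FPKM in weighted stems and 19.26, 16.38 and 6.92 FPKM in control stems (log2 fold change -2.73, SE 0.38, limma adjusted p = 0.0012), and Solyc07g007260.4 had a log2 fold change of -1.64. At 10 days 10 of 14 other proteases rose and 4 fell, with the cysteine protease Cp5 gene Solyc02g076750.3 highest by log2 fold change. It had 27.26, 19.49 and 25.70 FPKM in weighted stems and 8.63, 5.28 and 7.94 FPKM in control stems (log2 fold change 1.61, SE 0.19, limma adjusted p = 0.002).

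In the list of wound-induced defence genes, 4 rose and 12 fell among 17 tested at 6 h (median -0.53). Threonine dehydratase 2 (Solyc09g008670.3), an enzyme that depletes threonine in the gut of insects feeding on tomato, had 1.06, 1.39 and 2.57 FPKM in weighted stems and 5.61, 5.79 and 7.02 FPKM in control stems at 6 h (log2 fold change -1.45). At 10 days it had 20.80, 18.32 and 13.16 FPKM in weighted stems and 9.12, 4.35 and 10.46 FPKM in control stems (log2 fold change 1.09). That is the same pair of directions as for Solyc09g084460.3, but the list was divided at 10 days. Of its 4 genes tested in the 10 day table, 2 rose and 2 fell. Of 15 jasmonate genes tested at 6 h, 2 rose and 12 fell (median -0.76, beside -0.26 over all genes tested). Lipoxygenase genes are in both of these lists, so their counts are not separate. Jasmonate ZIM-domain protein 3 (Solyc01g005440.4), a repressor of the pathway, had 37.39, 55.67 and 47.28 FPKM in weighted stems and 139.64, 150.18 and 105.92 FPKM in control stems (log2 fold change -1.48). A lipoxygenase gene of low level, Solyc08g029000.3, rose to 3.90, 8.56 and 5.89 FPKM in weighted stems, against 1.91, 0.77 and 1.22 FPKM in control stems (log2 fold change 1.61). A far more abundant one, linoleate 13S-lipoxygenase 3-1 (Solyc03g122340.3), fell (log2 fold change -1.38). It had 54.36, 148.53 and 102.73 FPKM in weighted stems and 312.22, 150.54 and 320.05 FPKM in control stems.

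Of 17 pectinesterase and pectinesterase inhibitor genes, the enzymes that some subtilases process in Arabidopsis, 8 rose and 9 fell at 6 h (median -0.57). Solyc09g075330.4 rose most, with 51.48, 57.90 and 69.57 FPKM in weighted stems and 10.00, 6.67 and 9.34 FPKM in control stems (log2 fold change 2.66, SE 0.17, limma adjusted p = 0.00014). At 10 days 2 of 4 rose and 2 fell. The pectinesterase gene Solyc02g080200.4 then had 3.24, 3.17 and 5.27 FPKM in weighted stems and 1.26, 0.69 and 1.32 FPKM in control stems (log2 fold change 1.22, SE 0.20, limma adjusted p = 0.003). These lists were described by counts and medians, without a test of the list.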

How the data were processed

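The 12 RNA-seq libraries were compared. Per the labels' protocols, the authors aligned reads with HISAT to the genome and with Bowtie2 to genes; no version, build or annotation is named in the sources used here. The deposited tables hold FPKM per gene and library, with the authors' log2 ratios and Q values. In the 6 h table the column separators and decimal marks had been exchanged and were restored; values of 4 or more digits before the decimal mark could not always be read, so 99 of 5346 genes were taken from the other table (13) or left out (86), none of them a member. Where both tables give a member's value, 0 of 72 values differed by over 0.005 FPKM. In 8 of the 456 member values of the 6 h table a zero directly after the decimal mark may have been lost, an error of less than 1 FPKM. Ratios of the restored values had the sign of the authors' log2 ratio for all 38 and 9 members. Legible Q values were under 0.05 for 2983 of 2983 and 908 of 909 genes. Read counts could not be recovered (16.7% and 20.9% of low values were whole multiples of their gene's lowest value to within 0.005 FPKM), so depth is unknown.

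Log2(FPKM + 1) values of genes with at least 1 FPKM in 3 fitted libraries were tested with limma 3.58.1 (R 4.3.3; empirical Bayes with trend, two-sided, Benjamini-Hochberg adjustment over each table, adjusted p under 0.05 called), checked on simulated data. For 3 against 3 libraries the smallest p of an exact permutation test is 0.1, and single genes were not tested that way. Summaries used pandas 2.3.3 and figures matplotlib 3.10.9. Any member may be named. Every library is given for members in both tables and for those with a mean of at least 5 FPKM among the 5 largest and 5 smallest called changes per class and comparison. At most 3 called genes of each related list are named. Members and lists were chosen with earlier results of these data known. Of the identifiers 0 matched the reference gene table, so no positions or sequences are given.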

Additional observations from a re-analysis of the deposited data

Results flagged for a closer look

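For 25 members the weight effect at 10 days differed from that at 6 h by a test of the difference itself (limma adjusted p under 0.05), given here as log2 fold change at 10 days minus that at 6 h. A smaller effect at 10 days alone gives such a difference in genes chosen at 6 h, as does a smaller effect at 6 h in genes chosen at 10 days. For the 5 members of both tables with opposite directions, it is largely given by the choice at each time. Of the members, 23 of the 35 tested in the 6 h table passed, with 15 more positive and 8 more negative at 10 days. Among all genes of that table the share was 46.7%, with 24.9% more positive and 21.8% more negative. In the 10 day table the share was 7 of 9 members, against 49.1% of all genes. The 5 members with opposite directions are in both counts.

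The 3 inhibitors were more positive at 10 days, with 2.72 for Solyc09g084460.3, 2.06 for Solyc09g084450.3 and 1.68 for Solyc09g084440.2. Solyc09g084450.3 was at 1.95 FPKM or less in every library at 10 days.

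Among the subtilases, the difference was positive in 13. It was 1.58 for Solyc03g081260.4, 1.57 for Solyc08g079890.2, 1.45 for Solyc06g062950.1, 1.13 for Solyc10g084320.3, 1.06 for Solyc02g069630.3 and 1.005 for Solyc08g079860.2. Smaller values were 0.96 for Solyc01g087780.2, 0.89 for Solyc02g030130.4, 0.85 for Solyc01g091930.3, 0.76 for tripeptidyl-peptidase II (Solyc03g025610.3, in the 10 day table), 0.68 for Solyc03g123490.1, 0.57 for Solyc08g007690.1 and 0.47 for Solyc07g008900.4. In every library at 10 days Solyc08g007690.1 was at 0.06 FPKM or less and Solyc02g030130.4 at 1.1 FPKM or less.

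It was negative in 9 subtilases, at -1.51 for Solyc01g087810.2, -1.42 for SBT3 (Solyc01g087850.2), -1.38 for Solyc04g078710.3, -0.92 for Solyc04g078740.2 and -0.85 for Solyc01g087840.3. The other 4 were -0.80 for Solyc02g092670.1 (10 day table), -0.79 for Solyc01g087820.2, -0.71 for Solyc12g011140.3 and -0.62 for Solyc01g006680.4. In the run of identifiers that ends with SBT3, 4 of the genes that rose at 6 h were in this group. The call of Solyc01g006680.4 was lost with quantile normalization (limma adjusted p = 0.0599) and that of Solyc08g007690.1 with a pseudocount of 0.1 (limma adjusted p = 0.0888). Solyc01g087810.2, Solyc04g078710.3, Solyc12g011140.3 and Solyc01g006680.4 were at 1.32 FPKM or less in every library at 10 days.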

How the results depend on the processing

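The count of 41 members was 18 when only the protein name was matched. The total counts of called members, both directions together, stayed within 1.5 times under the other pseudocounts, filters and scalings, array weights and robust estimation; some counts in 1 direction did not. With the 5 FPKM filter 7 subtilases rose and 10 fell at 6 h, 5 were more negative at 10 days in the difference between the times, and 1 was higher at 10 days in control stems, where median ratios gave 4 and quantile normalization 6. With array weights 3 inhibitors were more negative in the difference between the times, against 0. At 10 days 2 subtilases fell with no filter, against 1, and 0 subtilases and 0 inhibitors fell with library totals equalised. The inhibitors that fell were 0 also with quantile normalization and with all 12 libraries in one fit. In the 10 day table at 6 h, 1 subtilase fell with library totals equalised, against 2. With all 12 libraries in one fit, 3 members of the 6 h table passed at 10 days, against 0 in the 6 libraries. All 3 are in the 10 day table too. In the 10 day table at 6 h, the count of 5 ran from 2 to 5 when 1 library was left out and was 2 with the replicate number as a block. The replicate numbers showed no clear pairing of the samples, although 3 libraries per group cannot exclude it. The correlation of same-numbered deviations from the group means ran from -0.461 to 0.551 over 12 comparisons, of which 1 was best with its own number. When 1 library was left out, the total counts ran from 26 to 31 at 6 h, from 7 to 8 at 10 days and from 17 to 23 for the difference between the times. Inhibitors that rose at 6 h then ran from 1 to 3, and subtilases higher at 10 days in control stems from 1 (without control replicate 1 or 3 of 6 h) to 4 (without control replicate 2 of 10 days). With the block the count was 34 against 35 at 6 h, 8 against 8 at 10 days, and 20 against 23 for the difference between the times. The cystatin Solyc01g009020.4 at 10 days turned to 0.0794 (limma adjusted p = 0.503) with library totals equalised; its range over all alternatives was -0.30 to 0.0794, with adjusted p up to 0.503; the cause was not tested. No other called member changed sign. Of the 35 calls at 6 h, 18 passed under every alternative, 7 passed wherever they were tested but fell under the minimum level in at least 1 alternative, and the other 10 were lost in at least 1. Precision is limited by 3 libraries per group and by unknown depth.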
